A study of Mus musculus with 34 samples.

Results

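QKO mice lack both receptors of the insulin family and 3 FoxO transcription factors in skeletal muscle, and their muscle RNA was set here against that of the floxed controls of the same colony, Qlox. The groups were chosen by the genotype in the library titles, which gives 7 QKO and 2 Qlox libraries, 9 of the 34 in the series, and every gene of the count table was used. In QKO the insulin receptor (Insr), the IGF-1 receptor (Igf1r) and Foxo1, Foxo3 and Foxo4 were deleted by a Cre recombinase under the muscle actin promoter (Acta1-Cre), so that fibers lose the genes while other cells of the tissue keep them. Qlox mice carry the floxed alleles only. MIGIRKO mice (6 libraries), which lack both receptors and keep the FoxO genes, and their own floxed controls IRIGFRlox (3 libraries) serve for a test of what differs when the FoxO genes are missing as well. The 10 floxed libraries of the other colonies (IRlox, IGFRlox and IRIGFRlox) show how far floxed muscle varies. Mice were males, unless stated otherwise in the labels, of a mixed C57Blk6, C57Blk6J and 129 background, ages are not given in the sources used here, and Nnt mutations were present in some mice on 1 copy and in others on both, in QKO as in Qlox. Each line was kept as a separate colony, and each RNA sample was a mixture of powdered quadriceps and gastrocnemius. The labels do not say which mouse gave which library, so p-values measure the spread between these samples.

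Insulin and IGF-1 bind their receptors at the fiber surface and activate PI3-kinase and AKT, which phosphorylates FoxO proteins and keeps them out of the nucleus. When the receptors are lost, FoxO proteins stay nuclear and drive genes of muscle wasting, among them the ubiquitin ligases Trim63 (MuRF1) and Fbxo32 (atrogin-1), autophagy genes and inhibitors of growth signalling. AKT also releases mTORC1, the kinase complex that promotes protein synthesis, from inhibitors such as the Tsc1 and Tsc2 complex.

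Total counts were 1499025 (QKO 5) to 6605874 in QKO, and 3439749 and 4764528 in Qlox. Of 10 markers that define muscle fibers, 9 were tested, and their summed level was 136501 CPM (counts scaled to a common library total) in QKO 6, 180800.0 to 246197 CPM in the other QKO libraries, and 214124 and 198647 CPM in Qlox. QKO 6 was rich in macrophage transcripts. The 24 macrophage markers summed to 5475 CPM in QKO 6, 435 to 1449.8 CPM in the other 6 QKO libraries, 389 and 472 CPM in Qlox, and 306 to 595 CPM in the other floxed libraries. Adgre1, the macrophage surface marker F4/80, was at 135 CPM in QKO 6, at 5.09 to 25.3 CPM in the other QKO libraries, and at 6.23 and 8.25 CPM in Qlox. Across genes, which are not independent replicates, QKO 5 correlated most closely with Qlox 2 (r = 0.959), QKO 6 with the library labelled MIGIRKO 6 (r = 0.961), and the other QKO libraries with one another. The library labelled MIGIRKO 6 correlated most closely with MIRKO 3 (r = 0.973), from the group that lacks the insulin receptor alone. Counts of called genes are given with and without QKO 5, QKO 6 and the library labelled MIGIRKO 6. For some genes and lists the change in QKO over Qlox is also given without QKO 6. Differences of single genes between QKO and MIGIRKO are given from all libraries, without such a check. In bulk tissue, fewer cells of a type and less RNA per cell cannot be told apart. By the library numbers in the titles, QKO 5 and Qlox 1 came from one run of consecutive numbers and QKO 6 and Qlox 2 from another, and no other QKO library shares a run with a Qlox library.

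Transcripts of 4 of the 5 targeted genes fell in QKO, and those of Foxo3 did not pass the test. Foxo4 (ENSMUSG00000042903, chromosome X, 101254528 to 101260873, + strand, GRCm38, as are all coordinates) was at 5.08 to 10.2 CPM in QKO (median 5.64), against 144 and 160.2 CPM in Qlox (log2 change -4.57 ± 0.19 SE, adjusted p = 2.8e-18). Foxo1 (ENSMUSG00000044167, chromosome 3, 52268336 to 52353221, + strand) was at 12.6 to 28.3 CPM in QKO (median 16.9), against 132 and 148 CPM in Qlox, a log2 change of -2.98 ± 0.36 (adjusted p = 4.9e-06). Every QKO library lay far below both Qlox libraries for these genes. Insr (ENSMUSG00000005534, chromosome 8, 3122061 to 3279617, - strand) was at 27.8 to 46.1 CPM in QKO (median 39.5), against 163 and 141 CPM in Qlox (log2 change -1.99 ± 0.16, adjusted p = 2.7e-10). Igf1r (ENSMUSG00000005533, chromosome 7, 67952827 to 68233668, + strand) was at 4.01 to 11.9 CPM in QKO (median 8.73), against 16.7 and 18.6 CPM in Qlox, again without overlap. Its log2 change was -1.09 ± 0.25 (adjusted p = 0.027), and -1.23, adjusted p = 0.0066 without QKO 6. The call of Igf1r was lost without QKO 1, Qlox 1 or Qlox 2 (adjusted p = 0.055 to 0.48), and with library totals only, the run block or a fit of just the compared groups (adjusted p = 0.087 to 0.25). Foxo3 (ENSMUSG00000048756, chromosome 10, 42181841 to 42276755, - strand) was at 93.1 to 136 CPM in QKO (median 116), against 79.7 and 103 CPM in Qlox, and these groups overlapped (log2 change 0.29 ± 0.27, adjusted p = 0.71). Which part of each FoxO gene is deleted is not given in the sources used here, so whole-gene counts need not show the Foxo3 deletion. Within the library runs that hold both genotypes, Foxo1 differed by -2.20 (QKO 5 minus Qlox 1) and -2.90 (QKO 6 minus Qlox 2) on the log2 scale, Foxo4 by -3.77 and -4.74, Insr by -2.15 and -1.74, and Igf1r by -0.70 and -0.62. Nnt, the mitochondrial transhydrogenase, was at 26.9 to 150.2 CPM in QKO (median 84.8), against 49.9 and 141 CPM in Qlox and was not called (log2 change -0.12 ± 0.52, adjusted p = 0.96).

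**Figure D1:**
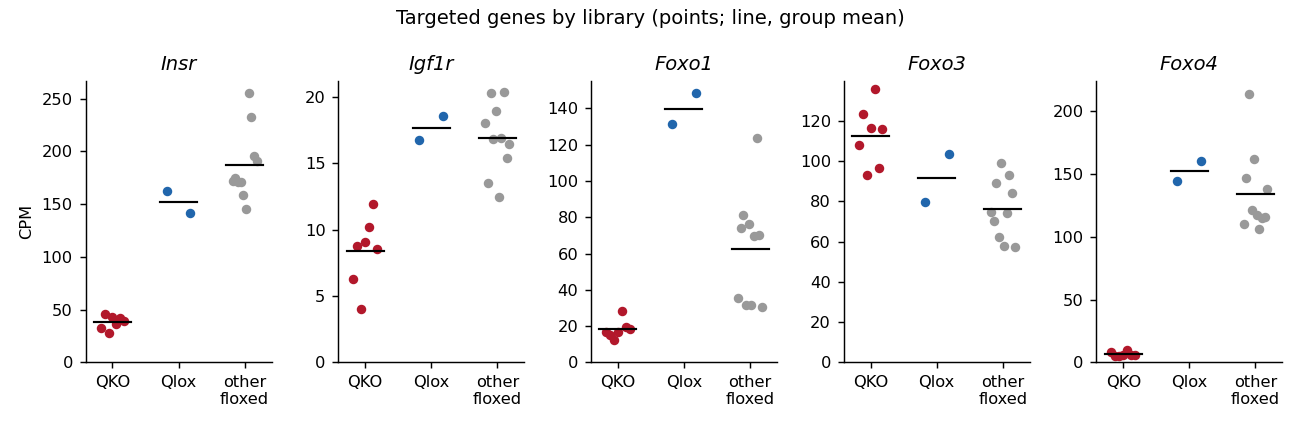
Level of the 5 targeted genes in CPM in each QKO library (left, 7), each Qlox library (middle, 2) and each floxed library of the other colonies (right, 10), with lines at the group means. QKO libraries lie below every floxed library for Insr, Igf1r, Foxo1 and Foxo4, while Foxo3 is at 93.1 to 136 CPM in QKO and 79.7 and 103 CPM in Qlox.

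Of 13646 genes tested, 69 (0.506%) were called at an adjusted p under 0.05 by edgeR's quasi-likelihood test, 62 of them lower (0.454%) and 7 higher (0.0513%) in QKO. At an unadjusted p under 0.05, 811 genes were higher (5.94%) and 768 lower (5.63%). Of the 62 lower genes, 42 were at least 2-fold lower, and for 61 every QKO library lay below both Qlox libraries, as it did for 5.86% of all tested genes. In 29 of the 62, all 10 floxed libraries of the other colonies also lay above every QKO library. All 7 higher genes were at least 2-fold higher with every QKO library above both Qlox libraries (3.91% of all genes). For 2 of the 7 the other floxed libraries lay below every QKO library as well. The share of all tested genes set apart from the other floxed libraries in this way is not given here. The counts of 29 and 2 therefore have no background beside them. Of the 69 genes, 68 differed in the same direction in both within-run pairs (QKO 5 against Qlox 1 and QKO 6 against Qlox 2). The exception was Fam83d. Such a direction follows wherever every QKO library lay beyond both Qlox libraries, so it is no separate check of run effects.

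Without QKO 6, 62 genes were called (0.457%), 53 lower (0.391%) and 9 higher (0.0664%). These shared 58 with the 69 genes above, and the 4 others, Scn3b, Itm2a, Gm37435 and Ermp1, had adjusted p of 0.055 to 0.078 with QKO 6 included. The 11 calls lost without QKO 6 reached adjusted p of 0.057 to 0.087. The 2 control libraries bore more weight. Without Qlox 1 there were 22 calls and without Qlox 2 there were 21, of which 22 and 20 were among the 69. With all 12 floxed libraries as control 1084 genes were called, 62 of the 69 among them, 626 higher and 458 lower. With library runs as a block 55 genes were called (0.403%), 49 lower (0.359%) and 6 higher (0.044%), and 37 of these were among the 69. Genes called in all 21 settings tried included Foxo4, Tspan8, Kcnab1, Foxo1, Maob, Dkk3, Pik3ip1, Insr, Castor2, Cbfb and Setd7, each lower in QKO. Of these, Foxo1, Insr, Tspan8, Kcnab1, Pik3ip1 and Setd7 overlap an annotated transcript on the opposite strand. So do others described here, among them Klhl38, Aqp4, Mfhas1, Pde7a, Mlxip, Egf, Sorbs2, Alpk2, Eif4g3, Myh7, Fbxo32 and Ncam1. Cntnap2, Pnpla7, Ndrg1, Sort1, Rnf144b, Syne1, Herc2, Prkacb, Ube4a, Arhgap26, Atp2a2 and 4930481A15Rik have such an overlap as well. How counting treated strand is not given in the sources used here, so reads of such pairs cannot be told apart.

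Among 44 tested genes of a list of known FoxO targets and muscle atrophy genes, 3 fell and none rose, and 30 had a change below 0, while 54.4% of all tested genes had one above 0. The median log2 change of the list was -0.28 (-0.24 without QKO 6), against 0.04 over all tested genes. At an unadjusted p under 0.05, 10 were lower and 0 higher, and for 10 every QKO library lay below both Qlox libraries. Pik3ip1, a membrane protein that restrains PI3-kinase, moved most. It was at 5.45 to 10.9 CPM in QKO (median 9.38), against 37.7 and 41.0 CPM in Qlox (log2 change -2.19 ± 0.24 SE, adjusted p = 5.2e-07), with no overlap, and at 23.2 to 46.1 CPM in the other floxed libraries. Sesn1, a stress-induced inhibitor of mTORC1, was at 22.2 to 43.5 CPM in QKO (median 30.0), against 46.9 and 89.9 CPM in Qlox (log2 change -1.10 ± 0.27 SE, adjusted p = 0.048). The highest QKO library lay just below Qlox 1, and Qlox 2 was far above both. The call of Sesn1 was lost without QKO 1, QKO 2, QKO 3, QKO 4, QKO 5 or Qlox 2 (adjusted p = 0.057 to 0.79), and with limma-voom, library totals only, no filter, the run block, a fit of just the compared groups or all 12 floxed libraries as control (adjusted p = 0.059 to 0.17), and its log2 change was -0.55 without Qlox 2 and -0.55 against all 12 floxed libraries. Klhl38, a kelch-repeat protein, was at 5.62 to 15.2 CPM in QKO (median 9.22), against 20.7 and 35.3 CPM in Qlox (log2 change -1.47 ± 0.35 SE, adjusted p = 0.043), and its call was lost without QKO 1, QKO 2, QKO 6, QKO 7, Qlox 1, Qlox 2 or both QKO 5 and QKO 6 (adjusted p = 0.073 to 0.71), and with no filter or a fit of just the compared groups (adjusted p = 0.09 to 0.15).

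The best known atrophy genes did not pass the test. Trim63 was at 168 to 536 CPM in QKO (median 309), against 574 and 1053 CPM in Qlox, without overlap, and its log2 change was -1.33 ± 0.38 (adjusted p = 0.13). Fbxo32 was at 209 to 438 CPM in QKO (median 242), against 362 and 528 CPM in Qlox (log2 change -0.73 ± 0.31, adjusted p = 0.36), with QKO 3 above Qlox 1. It was called lower against all 12 floxed libraries (log2 change -0.84, adjusted p = 0.014). Klf15, a transcription factor of amino acid breakdown, was at 10.1 to 22.7 CPM in QKO (median 16.6), against 27.9 and 47.2 CPM in Qlox (log2 change -1.19 ± 0.30, adjusted p = 0.059). It was called with the run block (-1.47, adjusted p = 0.013) and by DESeq2 (-1.17, adjusted p = 0.033). Ulk1, the kinase that starts autophagy, was at 67.7 to 109 CPM in QKO (median 87.2), against 131 and 148 CPM in Qlox (log2 change -0.65 ± 0.19, adjusted p = 0.14). Among 31 autophagy and mitophagy genes none was called by edgeR, 7 were lower and 1 higher at an unadjusted p under 0.05, 23 had a change below 0, and the median was -0.24. DESeq2 called none. The mitophagy kinase Pink1 was called lower with the run block (-0.76, adjusted p = 0.041), and 4 members were called lower against all 12 floxed libraries, namely Ulk1 (-0.48, adjusted p = 0.013), Wipi2 (-0.41, adjusted p = 0.004), Atg9a (-0.35, adjusted p = 0.043) and Sqstm1 (-0.47, adjusted p = 0.03). The metallothionein Mt2, also on the FoxO list, had the list's highest log2 change at 2.26 (adjusted p = 0.44). Against all 12 floxed libraries 2 genes of the FoxO list were called higher and 5 lower. The higher ones were Mt2 (2.66, adjusted p = 0.0024) and the metallothionein Mt1 (1.59, adjusted p = 0.024). Among all 13646 genes tested, 626 were called higher and 458 lower with that control.

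Promoter sequences of called genes are shown because FoxO proteins bind DNA directly, at the core motif GTAAACA. The reference table, from RefSeq on GRCm38.p6, gives 250 bases before to 50 bases after annotated start sites, and it holds 57 such windows for 41 of the 62 lower genes. Pik3ip1 and Sesn1 are the FoxO-list members with a called change and a promoter in the table. Tspan8 and Pnpla7 were added after their matches to the motif were seen. Each sequence runs 5′ to 3′ on the gene's + strand, and capitals mark TGTTTAC, the reverse complement of the motif.
Pik3ip1, chr11:3330481-3330780: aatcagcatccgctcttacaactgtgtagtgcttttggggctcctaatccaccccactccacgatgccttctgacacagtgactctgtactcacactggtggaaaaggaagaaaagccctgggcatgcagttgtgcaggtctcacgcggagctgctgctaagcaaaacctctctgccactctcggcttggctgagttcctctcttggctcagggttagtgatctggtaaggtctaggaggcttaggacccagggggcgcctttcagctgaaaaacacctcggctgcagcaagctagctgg
Sesn1, chr10:41810324-41810623: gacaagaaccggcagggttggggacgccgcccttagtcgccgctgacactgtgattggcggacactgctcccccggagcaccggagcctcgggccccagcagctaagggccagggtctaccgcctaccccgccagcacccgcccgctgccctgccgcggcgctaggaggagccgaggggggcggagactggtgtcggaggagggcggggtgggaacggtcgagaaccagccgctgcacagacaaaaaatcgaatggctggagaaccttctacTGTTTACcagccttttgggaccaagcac
Tspan8, chr10:115817034-115817333: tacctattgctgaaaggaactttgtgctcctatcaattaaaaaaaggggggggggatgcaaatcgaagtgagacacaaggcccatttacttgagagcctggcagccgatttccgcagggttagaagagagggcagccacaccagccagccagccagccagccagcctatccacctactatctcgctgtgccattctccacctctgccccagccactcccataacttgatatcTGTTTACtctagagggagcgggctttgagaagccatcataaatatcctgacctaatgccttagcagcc
Pnpla7, chr2:24975783-24976082: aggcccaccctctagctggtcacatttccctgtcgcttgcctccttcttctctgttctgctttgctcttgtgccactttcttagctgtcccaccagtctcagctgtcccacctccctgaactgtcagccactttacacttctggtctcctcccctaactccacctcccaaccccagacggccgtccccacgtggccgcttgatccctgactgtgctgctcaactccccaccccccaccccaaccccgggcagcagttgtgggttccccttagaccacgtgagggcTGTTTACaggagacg

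The Pik3ip1 window holds neither GTAAACA nor TGTTTAC. The match starts 23 bases into the transcribed part of the Sesn1 window shown, counted from 1 at the start site, 18 bases before the start of Tspan8 and 36 bases into the transcribed part of the Pnpla7 window. Searched on both strands, the motif was found in 6 of the 57 windows of lower genes (10.5%), in 0 of 4 windows of higher genes and in 339 of 13172 windows of all tested genes (2.57%). The table holds another Sesn1 window, at chr10:41887189-41887488, which has no match. The 6 genes were Pnpla7, Egf, 9330159F19Rik, Sesn1, Tspan8 and 4930481A15Rik. A match is a run of letters and not a bound site, and a window without one says nothing of FoxO binding elsewhere in the gene.

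Transcripts of 3 inhibitors of mTORC1 fell in QKO. Of 30 tested genes of mTORC1 and translation control, 3 fell, none rose, and the median was -0.17 (-0.16 without QKO 6). The members that fell, Castor2, Sesn1 and Tsc1, are each known to restrain the complex. Castor2, a partner of the arginine sensor Castor1, was at 35.6 to 46.8 CPM in QKO (median 41.8), against 126 and 123 CPM in Qlox. The QKO libraries lay close together, well below either Qlox library and below all other floxed libraries (92.2 to 147 CPM). Its log2 change was -1.60 ± 0.13 (adjusted p = 2.3e-10), and -1.61, adjusted p = 5e-10 without QKO 6. Tsc1, a subunit of the complex that switches off the mTORC1 activator Rheb, was at 69.2 to 109.7 CPM in QKO (median 100.1), against 155 and 149.7 CPM in Qlox (log2 change -0.67 ± 0.16 SE, adjusted p = 0.043). The call of Tsc1 was lost without QKO 1, QKO 3, QKO 4, QKO 6, QKO 7, Qlox 1, Qlox 2 or both QKO 5 and QKO 6 (adjusted p = 0.052 to 0.51), and with library totals only, no filter, the run block or a fit of just the compared groups (adjusted p = 0.09 to 0.17). Its partner Tsc2 had a log2 change of -0.47 (adjusted p = 0.13) and was not called, nor was Ddit4, another stress-induced inhibitor (-1.78, adjusted p = 0.35).

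Among insulin and IGF signalling genes other than the targeted receptors, 1 of 41 genes fell (Pik3ip1), none rose and the median was -0.02. The receptor substrates Irs1 (0.22, adjusted p = 0.76) and Irs2 (-0.29, adjusted p = 0.71), the kinases Akt1 (0.34) and Akt2 (-0.14), and the glucose transporter Slc2a4 (-0.06) were not called. Against all 12 floxed libraries 2 genes of the list were called higher and 3 lower. The higher ones were Igf2 (1.49, adjusted p = 0.022) and Tbc1d1 (0.69, adjusted p = 0.021). Irs1 (-0.63, adjusted p = 0.016) and Tbc1d4 (-0.67, adjusted p = 0.0061) were among the lower ones, so the change of Irs1 reversed its sign.

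Among 22 genes of amino acid transport and metabolism 2 fell and none rose. Slc43a1, a transporter of large neutral amino acids, was at 5.58 to 15.4 CPM in QKO (median 8.02), against 23.0 and 26.1 CPM in Qlox (log2 change -1.51 ± 0.28 SE, adjusted p = 0.0027). Its call was lost without Qlox 2 (adjusted p = 0.16), and with a fit of just the compared groups (adjusted p = 0.11). Gpt2, the mitochondrial alanine aminotransferase, was at 289 to 451 CPM in QKO (median 372), against 727 and 744 CPM in Qlox (log2 change -0.96 ± 0.22, adjusted p = 0.025), and its call was lost without QKO 4, Qlox 1, Qlox 2 or both QKO 5 and QKO 6 (adjusted p = 0.058 to 0.36), and with the run block (adjusted p = 0.089). Both genes had every QKO library below both Qlox libraries. Odc1, the rate-limiting enzyme of polyamine synthesis and 1 of 13 polyamine genes tested, was the member of its list that fell. It was at 51.9 to 89.8 CPM in QKO (median 59.4), against 169 and 163 CPM in Qlox (log2 change -1.35 ± 0.25, adjusted p = 0.0037). That call was lost without Qlox 1 or Qlox 2 (adjusted p = 0.098 to 0.14).

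Tspan8, a tetraspanin, was at 1.88 to 19.0 CPM in QKO (median 9.22), against 124 and 97.7 CPM in Qlox (log2 change -3.44 ± 0.52 SE, adjusted p = 0.00037), and at 64.3 to 264 CPM in the other floxed libraries. Kcnab1, a beta subunit of voltage-gated potassium channels, was at 0.727 to 2.39 CPM in QKO (median 1.24), against 15.7 and 10.1 CPM in Qlox (log2 change -3.06 ± 0.39, adjusted p = 7.8e-06). Maob, the monoamine oxidase B of the outer mitochondrial membrane, was at 3.37 to 6.82 CPM in QKO (median 3.84), against 29.9 and 21.8 CPM in Qlox (log2 change -2.45 ± 0.26, adjusted p = 1.7e-07). None of the 7 QKO libraries reached any floxed library of the series for these genes. Dkk3, a secreted Dickkopf-family glycoprotein, was at 3.76 to 7.80 CPM in QKO (median 5.81), against 35.4 and 17.7 CPM in Qlox (log2 change -2.21 ± 0.26, adjusted p = 1.9e-06). Cntnap2, a neurexin-family adhesion protein, was at 1.5 to 4.55 CPM in QKO (median 2.31), against 15.1 and 11.0 CPM in Qlox (log2 change -2.38 ± 0.48, adjusted p = 0.01), and Dpysl5, a collapsin response mediator protein, was at 0.349 to 2.91 CPM in QKO (median 1.07), against 5.25 and 7.57 CPM in Qlox (log2 change -2.51 ± 0.38, adjusted p = 0.00023). Again no QKO library overlapped with Qlox. The call of Cntnap2 was lost without Qlox 1 or Qlox 2 (adjusted p = 0.083 to 0.34), and with the run block (adjusted p = 0.069), and that of Dpysl5 without Qlox 2 (adjusted p = 0.082).

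Slc40a1 (ferroportin, the iron exporter) was at 4.01 to 14.7 CPM in QKO (median 9.03), against 37.1 and 32.6 CPM in Qlox (log2 change -1.94 ± 0.40, adjusted p = 0.014), and the other floxed libraries were higher than either Qlox library, at 43.3 to 67.2 CPM. Its call was lost without Qlox 1 or Qlox 2 (adjusted p = 0.15 to 0.31), and with no filter or the run block (adjusted p = 0.053 to 0.092). Transcripts read less surely were also among the large losses. Plet1os, annotated antisense to Plet1, shares its locus and possibly its reads with that gene. It was at 0.267 to 4.14 CPM in QKO (median 1.05), against 7.22 and 6.42 CPM in Qlox (log2 change -2.42 ± 0.52, adjusted p = 0.018, lost without Qlox 1, Qlox 2 or both QKO 5 and QKO 6 (adjusted p = 0.062 to 0.29), and with a fit of just the compared groups (adjusted p = 0.19)). Btnl7-ps, an unprocessed pseudogene that may share reads with relatives, was at 0 to 0.267 CPM in QKO (median 0), against 0.984 and 1.83 CPM in Qlox (log2 change -3.94 ± 0.93, adjusted p = 0.043, lost without QKO 1, QKO 2, QKO 4, QKO 6, QKO 7, Qlox 1, Qlox 2 or both QKO 5 and QKO 6 (adjusted p = 0.057 to 0.65), and with limma-voom, library totals only or the run block (adjusted p = 0.065 to 0.27)). Fam83d was at 0 to 1.82 CPM in QKO (median 0.535), against 6.56 and 1.60 CPM in Qlox, with QKO 6 above Qlox 2. Its log2 change was -2.39 ± 0.56 (adjusted p = 0.042), and -3.02, adjusted p = 0.0053 without QKO 6. Its call was lost without QKO 1, QKO 2, QKO 3, QKO 4, QKO 7 or Qlox 1 (adjusted p = 0.063 to 0.81), and with limma-voom, library totals only or the run block (adjusted p = 0.062 to 0.14), and its log2 change was -1.12 without Qlox 1. These 3 transcripts are low, and each CPM value carries counting error.

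Single members fell in lists of lysosome, lipid and antioxidant genes. Npc1, which moves cholesterol out of lysosomes, was the called member among 26 lysosome genes and was at 43.1 to 99.7 CPM in QKO (median 59.1), against 149.9 and 172 CPM in Qlox (log2 change -1.28 ± 0.23, adjusted p = 0.0019, lost without Qlox 2 (adjusted p = 0.14), and with a fit of just the compared groups (adjusted p = 0.085)). The lysosome list summed to 7330.0 CPM in QKO 6, and without that library the change of Npc1 was -1.41, adjusted p = 0.00025. Fdft1, squalene synthase, was the called member among 26 genes of cholesterol and lipid synthesis and was at 17.9 to 32.5 CPM in QKO (median 26.5), against 56.4 and 52.5 CPM in Qlox (log2 change -1.11 ± 0.23, adjusted p = 0.011, lost without Qlox 1 or Qlox 2 (adjusted p = 0.15 to 0.32)). Fdft1 overlaps Ctsb and Npc1 overlaps Rmc1, each on the opposite strand. Gpx3, the secreted glutathione peroxidase, was the called member among 28 antioxidant genes and was at 71.2 to 151 CPM in QKO (median 98.8), against 184 and 235 CPM in Qlox (log2 change -1.0 ± 0.24, adjusted p = 0.043). The call of Gpx3 was lost without QKO 1, QKO 2, QKO 3, QKO 5, QKO 7, Qlox 1, Qlox 2 or both QKO 5 and QKO 6 (adjusted p = 0.057 to 0.65), and with library totals only, no filter, the run block or a fit of just the compared groups (adjusted p = 0.058 to 0.15).

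Cbfb, the DNA-binding partner of the Runx factors, was at 48.9 to 83.6 CPM in QKO (median 53.4), against 158 and 133 CPM in Qlox (log2 change -1.29 ± 0.17 SE, adjusted p = 1.6e-05). Setd7, a lysine methyltransferase, was at 286 to 426 CPM in QKO (median 322), against 755 and 704 CPM in Qlox (log2 change -1.14 ± 0.18, adjusted p = 0.00037). For both, QKO libraries lay below all 12 floxed libraries. Lrrc2, a leucine-rich repeat protein, was at 32.7 to 63.2 CPM in QKO (median 56.9), against 154 and 122 CPM in Qlox (log2 change -1.47 ± 0.23, adjusted p = 0.0003, lost without Qlox 1 (adjusted p = 0.074)). Alpk2, an alpha-kinase of striated muscle, was at 38.5 to 57.8 CPM in QKO (median 42.6), against 126 and 132 CPM in Qlox (log2 change -1.43 ± 0.29, adjusted p = 0.0097, lost without Qlox 1 or Qlox 2 (adjusted p = 0.18 to 0.19)). Sorbs2, an adaptor at Z-discs, was at 26.0 to 74.1 CPM in QKO (median 50.9), against 152 and 102 CPM in Qlox (log2 change -1.32 ± 0.24, adjusted p = 0.002, lost without Qlox 1 (adjusted p = 0.41), and with a fit of just the compared groups (adjusted p = 0.15)). Klhl33, a kelch protein, was at 23.8 to 50.8 CPM in QKO (median 46.5), against 110.2 and 129.5 CPM in Qlox (log2 change -1.57 ± 0.27, adjusted p = 0.0017, lost without Qlox 2 (adjusted p = 0.11)). None of these 4 overlapped with Qlox. Sox13, a transcription factor, was at 6.94 to 12.4 CPM in QKO (median 11.0), against 29.2 and 27.1 CPM in Qlox (log2 change -1.46 ± 0.26, adjusted p = 0.0019), and its call was lost without Qlox 1 or Qlox 2 (adjusted p = 0.06 to 0.1). Pnpla7, a lysophospholipase, was at 42.2 to 56.7 CPM in QKO (median 48.5), against 102 and 109.6 CPM in Qlox (log2 change -1.14 ± 0.20, adjusted p = 0.0017, lost without Qlox 2 (adjusted p = 0.1)). Egf, the epidermal growth factor precursor, was at 18.1 to 46.7 CPM in QKO (median 33.6), against 63.0 and 65.1 CPM in Qlox (log2 change -0.99 ± 0.23, adjusted p = 0.042), and its call was lost without QKO 2, QKO 4, QKO 7, Qlox 1 or Qlox 2 (adjusted p = 0.077 to 0.41), and with library totals only, the run block or a fit of just the compared groups (adjusted p = 0.083 to 0.25).

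Other lower genes had log2 changes of -1.42 to -0.52, each without overlap between QKO and Qlox. They include the ubiquitin ligases Rnf144b, Herc2 and Ube4a, the F-box protein Fbxl4, the ubiquitin-binding protein Zfand5, the phosphodiesterase Pde7a, the kinase subunit Prkacb, the nuclear envelope protein Syne1, the sorting receptor Sort1, the JNK-activating kinase Map2k7, the glucose-responsive factor Mlxip and the translation scaffold Eif4g3. The genes were picked from these by known role after their values were seen, and each lost its call without Qlox 1 or without Qlox 2, or in both cases. The call of Zfand5 was also lost without QKO 6 (adjusted p = 0.06). Another, ENSMUSG00000091089, has no symbol in the tables used. Pde7a was at 44.6 to 75.7 CPM in QKO (median 55.2), against 141 and 146 CPM in Qlox (log2 change -1.31 ± 0.25, adjusted p = 0.0039, lost without Qlox 1 or Qlox 2 (adjusted p = 0.11 to 0.13), and with the run block (adjusted p = 0.055)). Mlxip was at 129 to 169 CPM in QKO (median 149), against 271 and 300.3 CPM in Qlox (log2 change -0.93 ± 0.17, adjusted p = 0.0019, lost without Qlox 2 (adjusted p = 0.15)). Eif4g3 had the smallest change, at 177 to 233 CPM in QKO (median 208), against 292 and 288 CPM in Qlox (log2 change -0.52 ± 0.12, adjusted p = 0.045), and its call was lost without QKO 1, QKO 2, QKO 3, QKO 4, QKO 6, QKO 7, Qlox 1, Qlox 2 or both QKO 5 and QKO 6 (adjusted p = 0.0501 to 0.53), and with no filter, the CPM filter or a fit of just the compared groups (adjusted p = 0.052 to 0.26).

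The 7 higher genes belong to no common list, apart from Myod1 among 23 myogenic genes tested and Aqp4 among 25 membrane channels tested. Aqp4, the water channel of fast fibers, was at 106 to 141 CPM in QKO (median 111), against 51.8 and 36.0 CPM in Qlox. The other floxed libraries were at 43.0 to 128 CPM, and 8 of the 10 lay below every QKO library. Its log2 change was 1.40 ± 0.26 (adjusted p = 0.0031, lost without Qlox 2 (adjusted p = 0.31)), and Kcnab1 was the member of the channel list that fell. Myod1, a master regulator of myogenesis, was at 13.1 to 47.3 CPM in QKO (median 16.6), against 3.28 and 6.65 CPM in Qlox (log2 change 2.20 ± 0.53, adjusted p = 0.048). The 10 other floxed libraries were at 8.97 to 26.5 CPM for Myod1, and its call was lost without QKO 2, QKO 3, QKO 6, Qlox 1, Qlox 2 or both QKO 5 and QKO 6 (adjusted p = 0.058 to 0.65), and with limma-voom, library totals only, no filter, the CPM filter, the run block, a fit of just the compared groups or all 12 floxed libraries as control (adjusted p = 0.054 to 0.19). Map3k7cl was at 15.9 to 29.8 CPM in QKO (median 25.5), against 7.22 and 9.63 CPM in Qlox (log2 change 1.52 ± 0.27, adjusted p = 0.0019, lost without Qlox 1 or Qlox 2 (adjusted p = 0.053 to 0.23)). Mfhas1 was at 10.9 to 35.4 CPM in QKO (median 26.2), against 7.55 and 9.17 CPM in Qlox (log2 change 1.62 ± 0.34, adjusted p = 0.011, lost without Qlox 1 or Qlox 2 (adjusted p = 0.19 to 0.39), and with limma-voom, the run block or a fit of just the compared groups (adjusted p = 0.057 to 0.13)).

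Kif5c, a kinesin heavy chain best known from neurons, was at 4.54 to 13.9 CPM in QKO (median 9.21), against 1.97 and 1.83 CPM in Qlox (log2 change 2.16 ± 0.44, adjusted p = 0.01), and at 1.15 to 4.13 CPM in the other floxed libraries. Its call was lost without Qlox 1 or Qlox 2 (adjusted p = 0.26 to 0.31), and with limma-voom or a fit of just the compared groups (adjusted p = 0.074 to 0.15). Fam110a was at 1.45 to 5.27 CPM in QKO (median 4.19), against 0.328 and 0.229 CPM in Qlox (log2 change 3.71 ± 0.83, adjusted p = 0.025), at 0.300 to 3.25 CPM in the other floxed libraries, and its call was lost without Qlox 1 or Qlox 2 (adjusted p = 0.36 to 0.48), and with DESeq2, limma-voom or the run block (adjusted p = 0.052 to 0.12). Gm38098, a processed pseudogene at chromosome 3, 52425408 to 52425648, on the + strand, lies 72.2 kb beyond the end of Foxo1 on the same strand. It had 7 to 43 counts in every QKO library and 0 in both Qlox libraries. Of the 27 libraries outside QKO, MIGIRKO 1 and MIGF1RKO 2 (a group that lacks Igf1r) held 1 count each. Against a floor of 3 counts over the Qlox group, a mean of 5.87 CPM in QKO is at least 14.5-fold higher (adjusted p = 0.00074, lost without Qlox 2 (adjusted p = 0.06)). Floors and intervals of this kind cover counting error only. Against all 12 floxed libraries some of the higher genes had smaller log2 changes, at 1.59 for Fam110a, 0.84 for Myod1, 0.61 for Map3k7cl and 0.59 for Aqp4.

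Several called genes lie near a targeted gene. Besides Gm38098, Sesn1 lies 273 kb from Foxo3 on chromosome 10, Setd7 lies 707 kb from Foxo1 on chromosome 3 and Map2k7 lies 959 kb from Insr on chromosome 8. Of the 69 called genes and of all tested genes, chromosome 3, with Foxo1, holds 10 (14.5%) and 4.98%, and chromosome 8, with Insr, 8 (11.6%) and 5.35%. Chromosome 7, with Igf1r, holds 4 (5.80%) and 7.47%, chromosome 10, with Foxo3, 4 (5.80%) and 4.78%, and chromosome X, with Foxo4, 2 (2.90%) and 3.21%. Chromosome 2, which holds no targeted gene, has 8 (11.6%) and 7.80%. The counts of chromosomes 3, 8, 7 and X include the called targeted genes Foxo1, Insr, Igf1r and Foxo4 themselves. The part of position in these calls was not tested.

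Of 36 tested complex I subunits none was called by edgeR, 31 had a change above 0, and the median was 0.38 (0.48 without QKO 6), but -0.10 with library runs as a block. At an unadjusted p under 0.05, 2 were higher and 0 lower. Ndufs1, a core subunit of complex I, had a log2 change of -0.15 (adjusted p = 0.71) and Ndufc2, an accessory subunit, one of 1.23 (adjusted p = 0.18). DESeq2 called Ndufc2 higher (1.23, adjusted p = 0.045). The summed level of the list was 4699 to 6705 CPM in QKO libraries other than QKO 6, 3533 CPM in QKO 6, and 4733 and 4714 CPM in Qlox. Complex IV and supercomplex genes (28 tested, none called) had a median of 0.33, or -0.05 with the block. ATP synthase genes (16 tested, none called) had a median of 0.21, or -0.16 with the block. Mitochondrially encoded mRNAs (13 tested, none called) had a median of 0.07, or -0.20 with the block.

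No slow fiber gene was called by edgeR. Of 17 tested, 16 had a change above 0, 7 were higher at an unadjusted p under 0.05, and the median was 0.83 (0.84 without QKO 6, 0.34 with library runs as a block). Myh7, the slow myosin heavy chain, was at 650.3 to 1135 CPM in QKO (median 765), against 289 and 363 CPM in Qlox, without overlap (log2 change 1.28 ± 0.42, adjusted p = 0.21). Atp2a2, the slow calcium pump, was at 630.1 to 1122 CPM in QKO (median 792), against 454 and 472 CPM in Qlox (log2 change 0.83 ± 0.25, adjusted p = 0.15). DESeq2 called 2 of the list higher, the slow tropomyosin Tpm3 (1.21, adjusted p = 0.039) and Atp2a2 (0.84, adjusted p = 0.048). Against all 12 floxed libraries 5 were called higher, namely Tpm3 (0.93, adjusted p = 0.0038), Atp2a2 (0.64, adjusted p = 0.0062), Myh7 (0.90, adjusted p = 0.011), Mybpc1 (0.38, adjusted p = 0.017) and Tnnc1 (1.11, adjusted p = 0.019). With that control 626 of all 13646 genes tested were called higher. The sum of the list was 7298 to 11019.6 CPM in QKO, 6431 and 7394 CPM in Qlox, and 6076 to 10117 CPM in the other floxed libraries, so QKO 6 lay below Qlox 2. Fast fiber genes (18 tested, none called) had a median of -0.05, and 0.07 without QKO 6.

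Cytosolic ribosomal protein genes were tested because they make up the machinery of translation. Of 64 tested, 62 had a change above 0, 19 were higher at an unadjusted p under 0.05 and none was called by edgeR or DESeq2. Their median was 0.65 (0.66 without QKO 6) and 0.11 with library runs as a block. The list summed to 5246, 5767, 5989.9 and 6041 CPM in QKO 1 to 4 and 5107 CPM in QKO 7, to 3882 CPM in QKO 5 and 4582 CPM in QKO 6, and to 3921 and 3900.3 CPM in Qlox. The QKO libraries from runs without a Qlox library were the higher ones, while in the shared runs QKO 5 was below Qlox 1 and QKO 6 above Qlox 2. QKO 1 to 4 and QKO 7 share no run with Qlox, so genotype and library run cannot be told apart in a direct comparison of these libraries with Qlox. For them the run block rests on libraries of other groups in their runs.

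No gene of the denervation and junction list was called by edgeR. Of 25 denervation and junction genes tested, 19 had a change above 0, 7 were higher at an unadjusted p under 0.05, and the median was 0.60 (0.31 with library runs as a block). DESeq2 called 5 of them higher, namely Chrng, Myog, Ncam1, Myh3 and Ankrd1, and against all 12 floxed libraries 8 were called higher and 2 lower. With that control 626 of all 13646 genes tested were called higher and 458 lower. Myog, the myogenic factor that rises on denervation, was at 3.49 to 12.2 CPM in QKO (median 4.36), against 0.984 and 1.60 CPM in Qlox, without overlap (log2 change 2.27 ± 0.68, adjusted p = 0.15). Ncam1, an adhesion molecule of denervated fibers, was at 15.0 to 36.1 CPM in QKO (median 19.2), against 10.5 and 11.7 CPM in Qlox (log2 change 1.15 ± 0.31, adjusted p = 0.087), and all 10 other floxed libraries lay below QKO. Mstn, the growth inhibitor myostatin, was at 34.2 to 88.5 CPM in QKO (median 76.8), against 86.3 and 82.3 CPM in Qlox (log2 change -0.32 ± 0.41, adjusted p = 0.81).

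Except for Cd163, every macrophage marker tested was higher in QKO 6 than in any other library of QKO or Qlox. Cd163 was at 30.4 CPM in QKO 6, at 19.2 to 53.8 CPM in the other QKO libraries, and at 37.1 and 51.4 CPM in Qlox. Of 24 macrophage markers tested, 23 had a change above 0, 16 were higher and 1 lower at an unadjusted p under 0.05, and none was called by edgeR. DESeq2 called Ctss higher (2.99, adjusted p = 0.032), and against all 12 floxed libraries 18 were called higher, with QKO 6 included. With that control 626 of all 13646 genes tested were called higher and 458 lower. The median of the macrophage markers was 1.73, and 0.82 without QKO 6. Lyz2, the lysozyme of macrophages, was at 114 to 405 CPM in QKO 1 to 5 and QKO 7, at 2072 CPM in QKO 6, and at 77.4 and 106 CPM in Qlox. Spp1 (osteopontin) was at 3.14 to 116 CPM in those QKO libraries, at 1225 CPM in QKO 6, and at 12.1 and 4.36 CPM in Qlox. The adipocyte list (14 tested, none called) had a median of -0.32 and the Schwann cell and nerve list (12 tested, none called) one of -0.71, with summed levels of 199 to 587 CPM in QKO and 750.1 and 474 CPM in Qlox for nerve. Kcnab1, Cntnap2 and Dpysl5 are also expressed by nerve cells, and the part of nerve in their lower counts was not tested. Fibroblast and matrix genes (22 tested, none called) had a median of 0.27, and endothelial genes (15 tested, none called) one of -0.18. These counts are edgeR's. At an unadjusted p under 0.05, 5 nerve genes were lower and 0 higher. With library runs as a block the nerve median was -0.92, and the Schwann cell gene Prx was called lower (-1.60, adjusted p = 0.034). DESeq2 called the endothelial receptor Flt1 lower (-0.55, adjusted p = 0.022) and no adipocyte, nerve or fibroblast gene, and against all 12 floxed libraries 2 fibroblast genes were called higher, and 2 endothelial genes and 1 nerve gene lower.

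**Figure D2:**
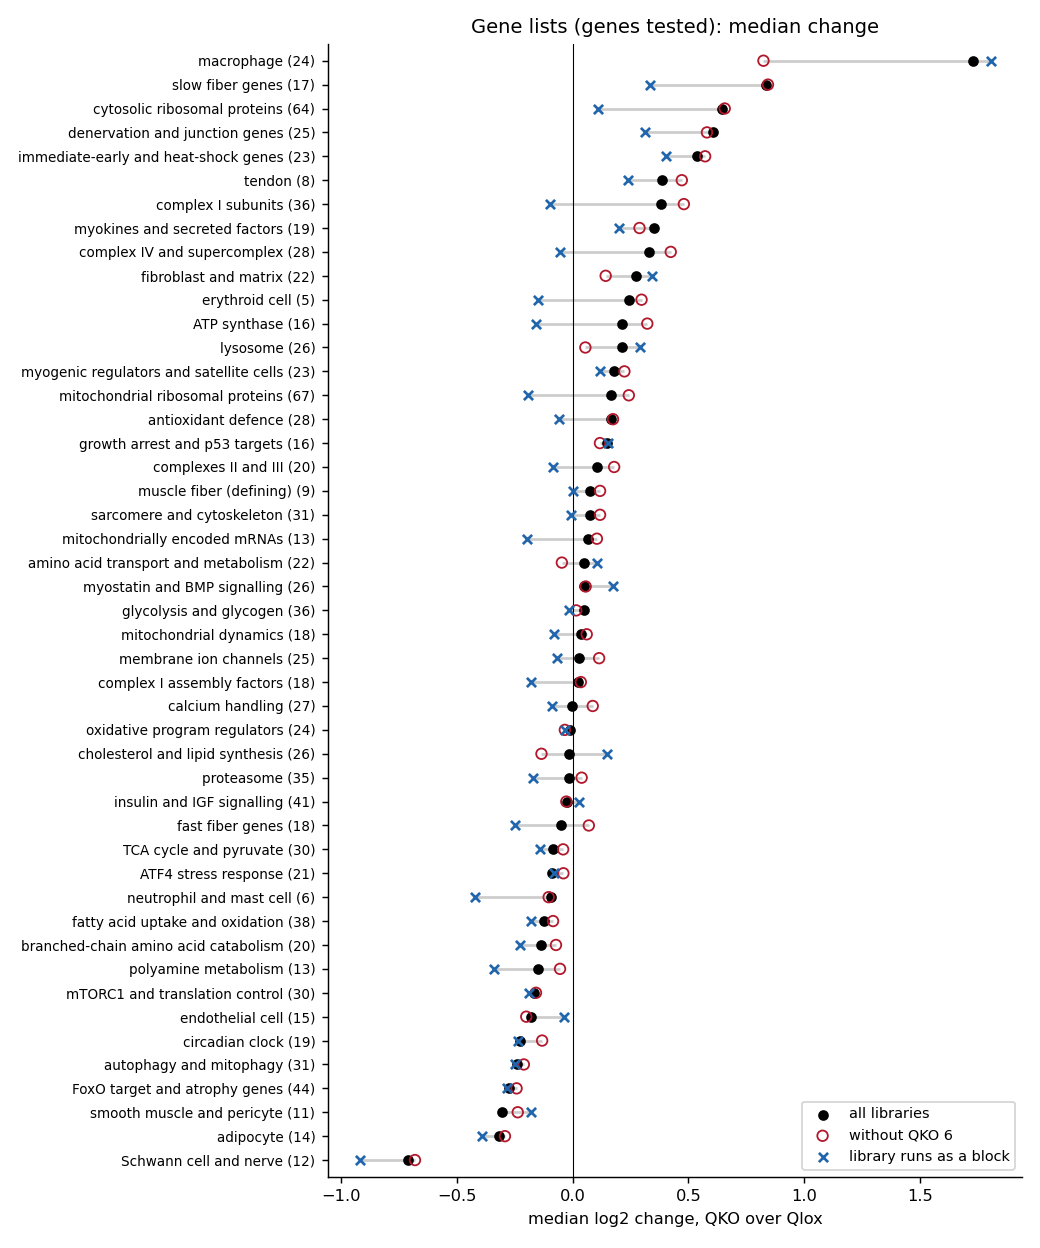
Median log2 change, QKO over Qlox, of each gene list with at least 5 genes tested (number in brackets), from all libraries (filled circles), without QKO 6 (open circles) and with library runs as a block (crosses). The macrophage median moves to 0.82 without QKO 6, and the ribosomal protein, slow fiber and complex I medians move to 0.11, 0.34 and -0.10 with the block.

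**Figure D3:**
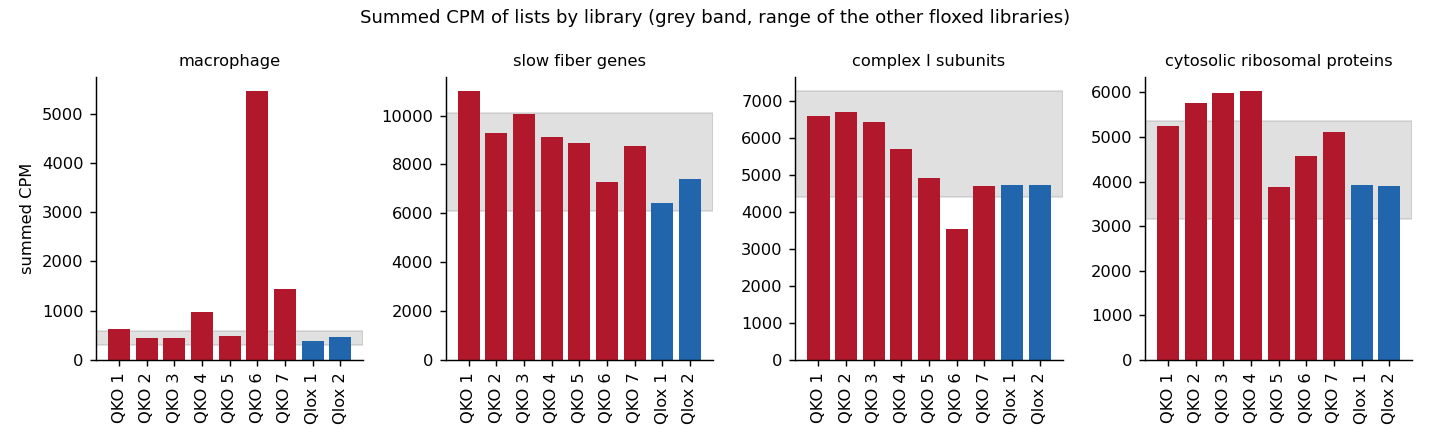
Summed CPM of macrophage, slow fiber, complex I and cytosolic ribosomal protein genes in each QKO library (left bars) and each Qlox library (right bars), with the range of the 10 other floxed libraries as a grey band. Macrophage genes reach 5475 CPM in QKO 6, and ribosomal protein genes are at 3882 CPM in QKO 5 and at 3921 and 3900.3 CPM in Qlox.

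The comparison with MIGIRKO asks which changes differ once the FoxO genes are lost together with the receptors. In MIGIRKO, 4603 genes (33.7%) were called against IRIGFRlox, and 38 of the 69 genes called in QKO were among them, 55.1% of the QKO calls and 0.826% of the MIGIRKO calls. The QKO change and the MIGIRKO change rest on different libraries, and they differed for 786 genes (5.76%), of which 493 were higher (3.61%) and 293 lower (2.15%). With library totals in place of scaled totals this became 166 higher and 1238 lower, and the median difference over all genes lay at -0.41, so the split by direction rests on the scaling. Without QKO 6 there were 1384 calls, without the library labelled MIGIRKO 6 there were 1201, without IRIGFRlox 1 and IRIGFRlox 3 there were 450 and 496, and without Qlox 1 and Qlox 2 there were 132 and 113.

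Of the 62 genes lower in QKO, 17 were called lower for the difference and none higher, against 2.15% lower and 3.61% higher of all tested genes. The difference contains the QKO change by which the 62 were picked, so that choice itself favours lower calls among them. Log2 changes of Foxo1 were -2.98 in QKO over Qlox and -0.40 in MIGIRKO over IRIGFRlox (difference -2.57 ± 0.51, adjusted p = 0.0041), and those of Foxo4 were -4.57 in QKO over Qlox and -0.73 in MIGIRKO over IRIGFRlox (difference -3.84 ± 0.27, adjusted p = 2e-11). Castor2 had changes of -1.60 in QKO over Qlox and -0.19 in MIGIRKO over IRIGFRlox (difference -1.41 ± 0.18, adjusted p = 1.8e-05). It was at 40.7 ± 3.84 CPM (SD, n = 7) in QKO and 125 ± 2.04 (n = 2) in Qlox, and its mean was 111 CPM in MIGIRKO and 127 CPM in IRIGFRlox. Pik3ip1 had changes of -2.19 in QKO over Qlox and -0.60 in MIGIRKO over IRIGFRlox (difference -1.60 ± 0.33, adjusted p = 0.0052) and missed the threshold for the difference without Qlox 2 (adjusted p = 0.056). Sesn1 had changes of -1.10 in QKO over Qlox and 0.47 in MIGIRKO over IRIGFRlox (difference -1.57 ± 0.37, adjusted p = 0.012), and without Qlox 2 the adjusted p of the difference was 0.26. Further genes lower for the difference were Maob (-1.54 ± 0.35, adjusted p = 0.01), Slc43a1 (-1.75 ± 0.37, adjusted p = 0.0065) and Gpx3 (-1.27 ± 0.33, adjusted p = 0.022). For Slc43a1 the difference missed the threshold without Qlox 2 (adjusted p = 0.071). For Gpx3 it did so without Qlox 1 (adjusted p = 0.062), without Qlox 2 (adjusted p = 0.18) and with the run block (adjusted p = 0.062). Of the 62 genes, 33 were also called lower in MIGIRKO, as were 2282 of all 13646 tested genes (16.7%). Kcnab1 had changes of -3.06 in QKO over Qlox and -2.60 in MIGIRKO over IRIGFRlox (difference -0.45 ± 0.53, adjusted p = 0.67) and Cntnap2 of -2.38 in QKO over Qlox and -3.06 in MIGIRKO over IRIGFRlox (difference 0.69 ± 0.68, adjusted p = 0.61), and for neither was the difference called. Ndrg1 and Btnl7-ps were called lower in QKO and higher in MIGIRKO. The QKO call of Ndrg1 was lost without QKO 1, QKO 2, QKO 4, QKO 5, QKO 6, QKO 7, Qlox 1, Qlox 2 or both QKO 5 and QKO 6 (adjusted p = 0.057 to 0.65), and with library totals only, no filter, a fit of just the compared groups or all 12 floxed libraries as control (adjusted p = 0.077 to 0.18), and its log2 change was -0.29 against all 12 floxed libraries.

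**Figure D4:**
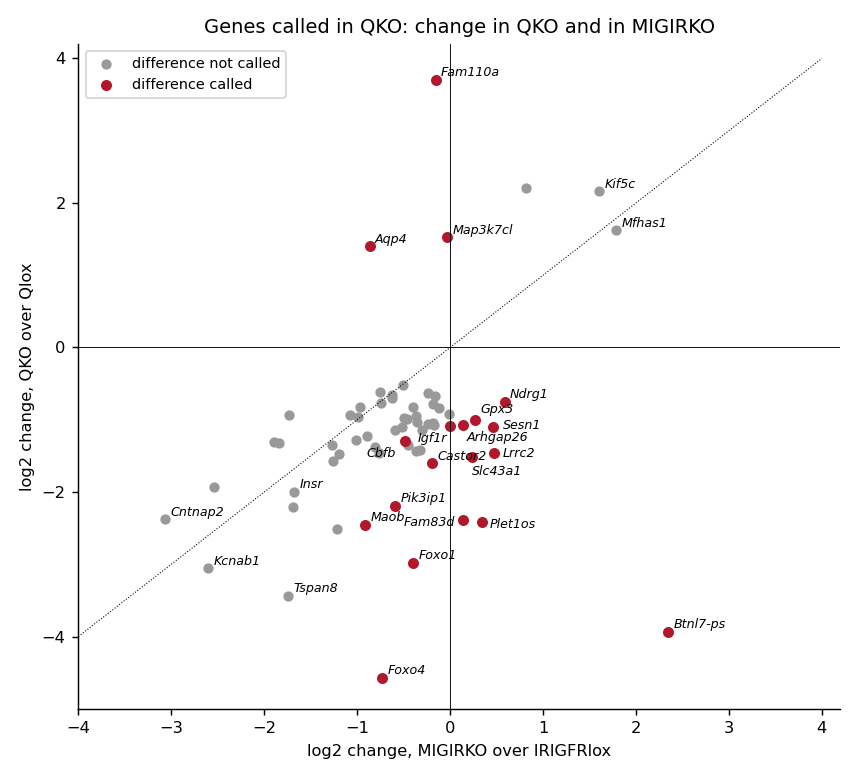
Log2 change in QKO over Qlox (vertical) against log2 change in MIGIRKO over IRIGFRlox (horizontal) for the genes called in QKO that are reported here, without Gm38098. Red points are genes whose difference between the changes was called, the dotted line marks equal changes, and Foxo4, Castor2 and Pik3ip1 lie below it while Kcnab1 and Cntnap2 are among the grey points.

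Of the 7 genes higher in QKO, Aqp4, Map3k7cl and Fam110a were called for the difference, which again contains the QKO change that picked them. Mfhas1 and Kif5c were called higher in both genotypes. Aqp4 had changes of 1.40 in QKO over Qlox and -0.87 in MIGIRKO over IRIGFRlox (difference 2.27 ± 0.33, adjusted p = 0.00018) and was called lower in MIGIRKO. Of 36 complex I subunits, 9 were higher for the difference and none lower, with a median of 1.10 (all genes 0.01), and 21 were called lower in MIGIRKO. Ndufs1 had changes of -0.15 in QKO over Qlox and -0.91 in MIGIRKO over IRIGFRlox (difference 0.76 ± 0.19, adjusted p = 0.016). The Ndufs1 difference became 0.31 with library totals only (adjusted p = 0.21) and had an adjusted p of 0.099 without Qlox 1 and 0.13 without Qlox 2. For the 9 subunits together, the adjusted p of the difference was 0.082 to 0.27 without Qlox 1, and without Qlox 2 it was 0.045 for Ndufa8 and 0.08 to 0.27 for the others. With library totals only it was 0.016 for Ndufc2 and 0.075 to 0.21 for the others, and with the run block 0.017 for Ndufs1, 0.028 for Ndufc2 and 0.07 to 0.19 for the others. Mb, the oxygen store myoglobin, had changes of 0.10 in QKO over Qlox and -2.35 in MIGIRKO over IRIGFRlox (difference 2.45 ± 0.43, adjusted p = 0.0015), and Mstn of -0.32 in QKO over Qlox and -2.85 in MIGIRKO over IRIGFRlox (difference 2.52 ± 0.59, adjusted p = 0.012). Mb held its call without Qlox 1 (adjusted p = 0.04) and without Qlox 2 (adjusted p = 0.017), and Mstn lost it (adjusted p = 0.095 without Qlox 1 and 0.11 without Qlox 2).

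Signalling genes outside the called set also differed between the genotypes. Grb14, an adaptor that inhibits the insulin receptor, was at 22.9 ± 6.02 CPM (SD, n = 7) in QKO and 24.1 ± 10.9 (n = 2) in Qlox, and at 2.61 ± 1.13 (n = 6) in MIGIRKO and 22.4 ± 3.34 (n = 3) in IRIGFRlox. Its changes were -0.09 in QKO over Qlox and -3.09 in MIGIRKO over IRIGFRlox (difference 3.00 ± 0.47, adjusted p = 0.00044). Igfbp5, an IGF-binding protein, had changes of 0.22 in QKO over Qlox and -1.83 in MIGIRKO over IRIGFRlox (difference 2.04 ± 0.28, adjusted p = 5e-05). Markers of other cells differed as well. Of 14 adipocyte markers 6 were lower for the difference, with medians of -0.32 in QKO and 2.53 in MIGIRKO, and of 12 Schwann cell and nerve markers 6 were lower, with medians of -0.71 in QKO and 1.24 in MIGIRKO. Of 9 markers that define muscle fibers, 4 were higher for the difference, with medians of 0.08 in QKO and -0.99 in MIGIRKO, so fat, nerve and fiber transcripts moved with the difference. Their part in the differences of other genes was not tested.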

How the data were processed

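Muscle RNA was sequenced in 34 libraries, and the authors deposited raw read counts per gene, made with STAR and featureCounts on GRCm38.p4 per the submitters' processing notes. Versions, annotation and strand setting are not given in the sources used here. Library kits were directional, per the labels' protocols. Total counts per library are as given in the report and set the precision of each value. Gene names and coordinates came from an annotation of GRCm38, and 45143 of 46071 IDs had a symbol. Counts were tested with edgeR 4.0.16 (quasi-likelihood, robust, TMM scaling) in R 4.3.3 in 1 fit with 1 mean for each of the 8 groups of all 34 libraries. The 13646 genes kept by filterByExpr were adjusted together by Benjamini-Hochberg, and called under 0.05. CPM are counts divided by TMM-scaled library totals and scaled to a common total. The difference test is the QKO change minus the MIGIRKO change in the same fit. Standard errors are those of the log2 changes. Python 3.11.15, numpy 2.4.6, pandas 2.3.3 and matplotlib 3.10.9 made tables and figures.

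Alternatives were DESeq2 1.42.0, limma-voom (limma 3.58.1), other scalings and filters, library runs as a block, other control sets and leaving out each library. Named genes are the targeted genes and Nnt, in each direction, the 12 largest changes among called genes averaging a log2 CPM of 1 or more, and from each of 48 gene lists the 4 called members with the smallest adjusted p. Other genes named were chosen after their values were seen. The members and lists were chosen with earlier results of these data known. Some called genes are not reported here. The scripts were tested on simulated data.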

Additional observations from a re-analysis of the deposited data

Results flagged for a closer look

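Values of single QKO libraries that stood apart from the other QKO libraries by Dixon's gap test are given first. This happened for 15 of 130 values checked, and chance gives about 1 in 20. Macrophage genes in QKO 6 led these, with Adgre1 at 135 CPM, Lyz2 at 2072 CPM, Spp1 at 1225 CPM and the macrophage list at 5475 CPM. The lysosome list, at 7330.0 CPM, and the list of TCA cycle and pyruvate genes, at 10016 CPM, also stood apart in QKO 6. QKO 5, the library with the fewest counts, was the highest for Setd7 at 426 CPM and the highest for Sort1 at 256 CPM, and its cholesterol and lipid synthesis genes summed to 1835 CPM. Fbxo32 at 438 CPM and Ndrg1 at 50.3 CPM stood apart in QKO 3. Plet1os stood apart at 4.14 CPM in QKO 4, as did Fam83d at 1.82 CPM in QKO 6 and H6pd at 92.8 CPM in QKO 2. The FoxO target and atrophy list summed to 7636 CPM in QKO 4.

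The change in QKO over Qlox differed from that in MIGIRKO over IRIGFRlox for 23 of 84 named genes checked, by the test of the difference itself. Other genes described above with a called difference, such as Mb, Grb14, Igfbp5 and Ndufs1, were not among those checked here. All values are differences of log2 changes, QKO minus MIGIRKO. Targeted genes were Foxo4 (-3.84), Foxo1 (-2.57) and Igf1r (-1.09), of which the FoxO genes are deleted in QKO alone and Igf1r in both genotypes. The Igf1r difference was as large as its change in QKO over Qlox (-1.09), so its whole-gene counts showed no such fall in MIGIRKO over IRIGFRlox. The cause was not tested. Genes lower for the difference were Btnl7-ps (-6.28), Maob (-1.54), Plet1os (-2.76), Fam83d (-2.52), Pik3ip1 (-1.60), Castor2 (-1.41), Slc43a1 (-1.75), Lrrc2 (-1.93), Cbfb (-0.80), Sesn1 (-1.57), Arhgap26 (-1.21), Gpx3 (-1.27) and Ndrg1 (-1.34). Genes higher for the difference were Mstn (2.52), Atp2a2 (1.30), Myh7 (1.86), Aqp4 (2.27), Map3k7cl (1.55), Tnnc1 (2.48) and Fam110a (3.86). Tnnc1 overlaps Nisch on the opposite strand.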

How the results depend on the processing

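Calls depended most on the 2 control libraries. The 69 genes called in QKO became 140 with DESeq2, 41 when just QKO and Qlox were fitted, 1084 against all 12 floxed libraries, and 135 without MIRKO 4 and MIGIRKO 6. Leaving out 1 library at a time gave 21 (without Qlox 2) to 85 (without QKO 5). The other alternatives gave 55 to 71 calls. The 786 genes whose QKO and MIGIRKO changes differed became 1404 with library totals only, 498 with no filter, 502 when just the 4 groups were fitted, 3999 against all 12 floxed libraries, 1342 without MIRKO 4 and MIGIRKO 6, and 1352 without QKO 5 and QKO 6. Leaving out 1 library gave 113 (without Qlox 2) to 1384 (without QKO 6). The cause was not tested. Among 84 named genes checked, which do not include Irs1, only Nnt changed sign, from a log2 change of -0.12 in all libraries. Its change was 0.10 without QKO 5 and QKO 6. When single libraries were left out it was -0.68 (without Qlox 1) to 0.82 (without Qlox 2), with 0.02 without QKO 5. Of 960 list medians recomputed, 42 moved by more than the spread between replicates. QKO 5, with 1499025 counts, limits low genes most. No paired analysis was possible because replicate numbers pair no QKO animal with a Qlox animal. Library runs, which hold both genotypes in 2 cases, were fitted as a block instead, and 37 of its 55 calls were among the 69.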

Other observations

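The further gene groups named here had no members called by edgeR or DESeq2 in QKO, which does not hold for every list not described above. Among 30 genes of the TCA cycle and pyruvate metabolism, 38 of fatty acid uptake and oxidation, 36 of glycolysis and glycogen and 35 of the proteasome, none was called, with medians of -0.09, -0.12, 0.05 and -0.02. Of 23 immediate-early and heat-shock genes, which answer stress and handling, 19 had a change above 0 (54.4% of all genes tested did) and the median was 0.54. None was called. Against all 12 floxed libraries, 2 of these were called higher, as were 2 of the glycolysis list, while 1 TCA cycle, 4 fatty acid, 3 glycolysis and 1 proteasome gene were called lower. Among all 13646 genes tested, 626 were called higher and 458 lower with that control. Whether these lists differ from that share was not tested.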
